A study of Homo sapiens with 9 samples.

Results

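The 8 genes described here make, cut, bind or accompany hyaluronan. HAS1, HAS2 and HAS3 encode hyaluronan synthases. CEMIP, HYAL2 and HYAL3 were grouped as genes of hyaluronan breakdown, CD44 encodes the main cell surface receptor for hyaluronan, and PRG4 encodes lubricin. They were selected from earlier results of these data, with measured values of these libraries in view, and they are 8 of the 20030 genes in the count and FPKM tables. Their levels and differences are therefore a description and carry no p-value.

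Polyadenylated RNA of the human hepatocellular carcinoma cell line MHCC97L and of 2 drug-resistant lines grown from it was sequenced in 3 libraries per line, 9 in all. MHCC97L was the untreated parental line, MHCC97L-Src had stable resistance to saracatinib, an inhibitor of Src family kinases, at 4 μmol/L, and MHCC97L-Oxa had stable resistance to oxaliplatin, a platinum drug, at 2 μmol/L. MHCC97L-Src came from culture in rising saracatinib concentrations and MHCC97L-Oxa from continued oxaliplatin treatment, and whether each is a clone is not stated. The comparisons of each resistant line with MHCC97L ask which RNA levels differ with acquired resistance, and the comparison of MHCC97L-Src with MHCC97L-Oxa asks where the resistant lines differ from each other.

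Reads assigned to genes numbered 16970486 in the smallest library and 18209213 in the largest. CPM values scale counts by that total to a common library size, and FPKM values also divide by transcript length, so the 8 genes were compared with each other in FPKM. Marker sums are in CPM, where long transcripts weigh more. A count of 0 allows up to 3 counts in a library, or 0.165 to 0.177 CPM, and such floors cover counting error only. The authors write of 3 independent experiments for MHCC97L and MHCC97L-Src, and the sample labels do not state what a replicate is, so a p-value here measures the spread between libraries.

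MHCC97L replicate 1 stood apart from its line. Pearson's r of log2 CPM was 0.859 between MHCC97L replicates 1 and 2, 0.916 between replicates 1 and 3, and 0.956 between replicates 2 and 3. Within MHCC97L-Oxa r was at least 0.984, and within MHCC97L-Src at least 0.969. Across genes, the deviation of a library from the mean of the 9 ran with GC content, over genes that are not independent replicates, at a Spearman's rho of -0.781 in MHCC97L replicate 1, against 0.299 and -0.255 in MHCC97L replicates 2 and 3. In MHCC97L-Src that rho was 0.542, 0.699 and 0.188, and in MHCC97L-Oxa 0.309, 0.202 and 0.166. Differences of the fitted members from MHCC97L are therefore also given without replicate 1 and after a correction for GC content and transcript length, and both comparisons with MHCC97L share its libraries.

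The hepatocellular origin on the labels was checked against 13 hepatocyte genes, of which 1 to 5 had over 3 counts in a library. ALB, AFP, APOB and TTR had 0 counts in all 9 libraries, and APOC3 and FGB had at most 1. SERPINA1 had 1 count in each MHCC97L library, 9 to 22 for MHCC97L-Src and 14 to 31 for MHCC97L-Oxa. CPS1 had the most counts of the hepatocyte genes in each library and made up nearly the whole sum, which was 561, 59.9 and 133 CPM in the MHCC97L libraries, 152, 117 and 142 for MHCC97L-Src and 110, 115 and 97.5 for MHCC97L-Oxa, in the order of replicates 1, 2 and 3 that all values per library follow. Of 5 epithelial genes 2 to 4 were detected, KRT8 had the most counts in each library, and EPCAM had at most 2 counts. CDH1 had 15 to 19 counts in the MHCC97L libraries, 2 to 5 for MHCC97L-Src and 2 to 4 for MHCC97L-Oxa. KRT19 had at most 11 counts, so the sum came almost wholly from KRT8 and KRT18. The epithelial sum was 3371, 5592 and 5976 CPM in the MHCC97L libraries, 5324, 6377 and 4689 for MHCC97L-Src and 3078, 2988 and 3203 for MHCC97L-Oxa.

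Hyaluronan is a long sugar polymer that is spun out at the plasma membrane by the synthases from nucleotide sugars and held in the matrix by binding proteins. CEMIP and the hyaluronidases shorten it, CD44 binds it at the surface and takes part in its uptake, and lysosomal enzymes finish the breakdown. Hyaluronan and CD44 are widely studied in tumour invasion and drug resistance, and CEMIP is raised in several carcinomas. Lubricin, best known from joints, is a heavily glycosylated lubricating protein that can bind CD44 and is also made by the liver.

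RNA of the hyaluronan synthases was scarce in every line. HAS1 (NCBI gene number 3036) had 0 counts in all 9 libraries. HAS2 (3037) had 8, 0 and 3 counts in the MHCC97L libraries, 4, 4 and 2 for MHCC97L-Src and 6, 5 and 5 for MHCC97L-Oxa. HAS1 was thus at or under the floor everywhere, and the HAS2 counts of MHCC97L spanned those of both resistant lines. Both genes failed the filter on low counts and have no fitted difference. The FPKM of HAS2 was 0.0168 in the first MHCC97L-Src replicate and 0.0690 in the second, although each had 4 counts, so at this depth FPKM was not a plain rescaling of counts.

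HAS3 (3038) had the highest mean FPKM of the synthases in each line. It had 33, 36 and 12 counts in MHCC97L, 18, 11 and 23 for MHCC97L-Src and 27, 19 and 24 for MHCC97L-Oxa. MHCC97L replicate 3 was low and the other MHCC97L libraries were high, so all 3 lines overlapped. The mean FPKM was 0.291 ± 0.139 (SD, n = 3) in MHCC97L, 0.193 ± 0.0649 for MHCC97L-Src and 0.251 ± 0.0414 for MHCC97L-Oxa. The log2 fold change against MHCC97L was -0.55 (standard error 0.54) for MHCC97L-Src and -0.21 (0.50) for MHCC97L-Oxa, no larger than about its standard error in either. These were -0.40 and -0.01 without MHCC97L replicate 1, and with GC content and length corrected for -0.65 and -0.27. The MHCC97L-Src value was -0.90 without MHCC97L replicate 3 and -0.16 without MHCC97L replicate 2, and the MHCC97L-Oxa value was -0.56 and turned to 0.20. Of the 5289 exon bases of HAS3, 365 are shared with CHTF8 on the opposite strand. CHTF8 had 2738, 4249 and 4680 counts in MHCC97L, 5369, 5750 and 4914 for MHCC97L-Src and 4684, 4446 and 4520 for MHCC97L-Oxa, and Pearson's r of log2 CPM with HAS3 was -0.561 over the 9 libraries. The summed FPKM of HAS1, HAS2 and HAS3 lay between 0.182 and 0.494 in the 9 libraries.

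**Figure D1:**
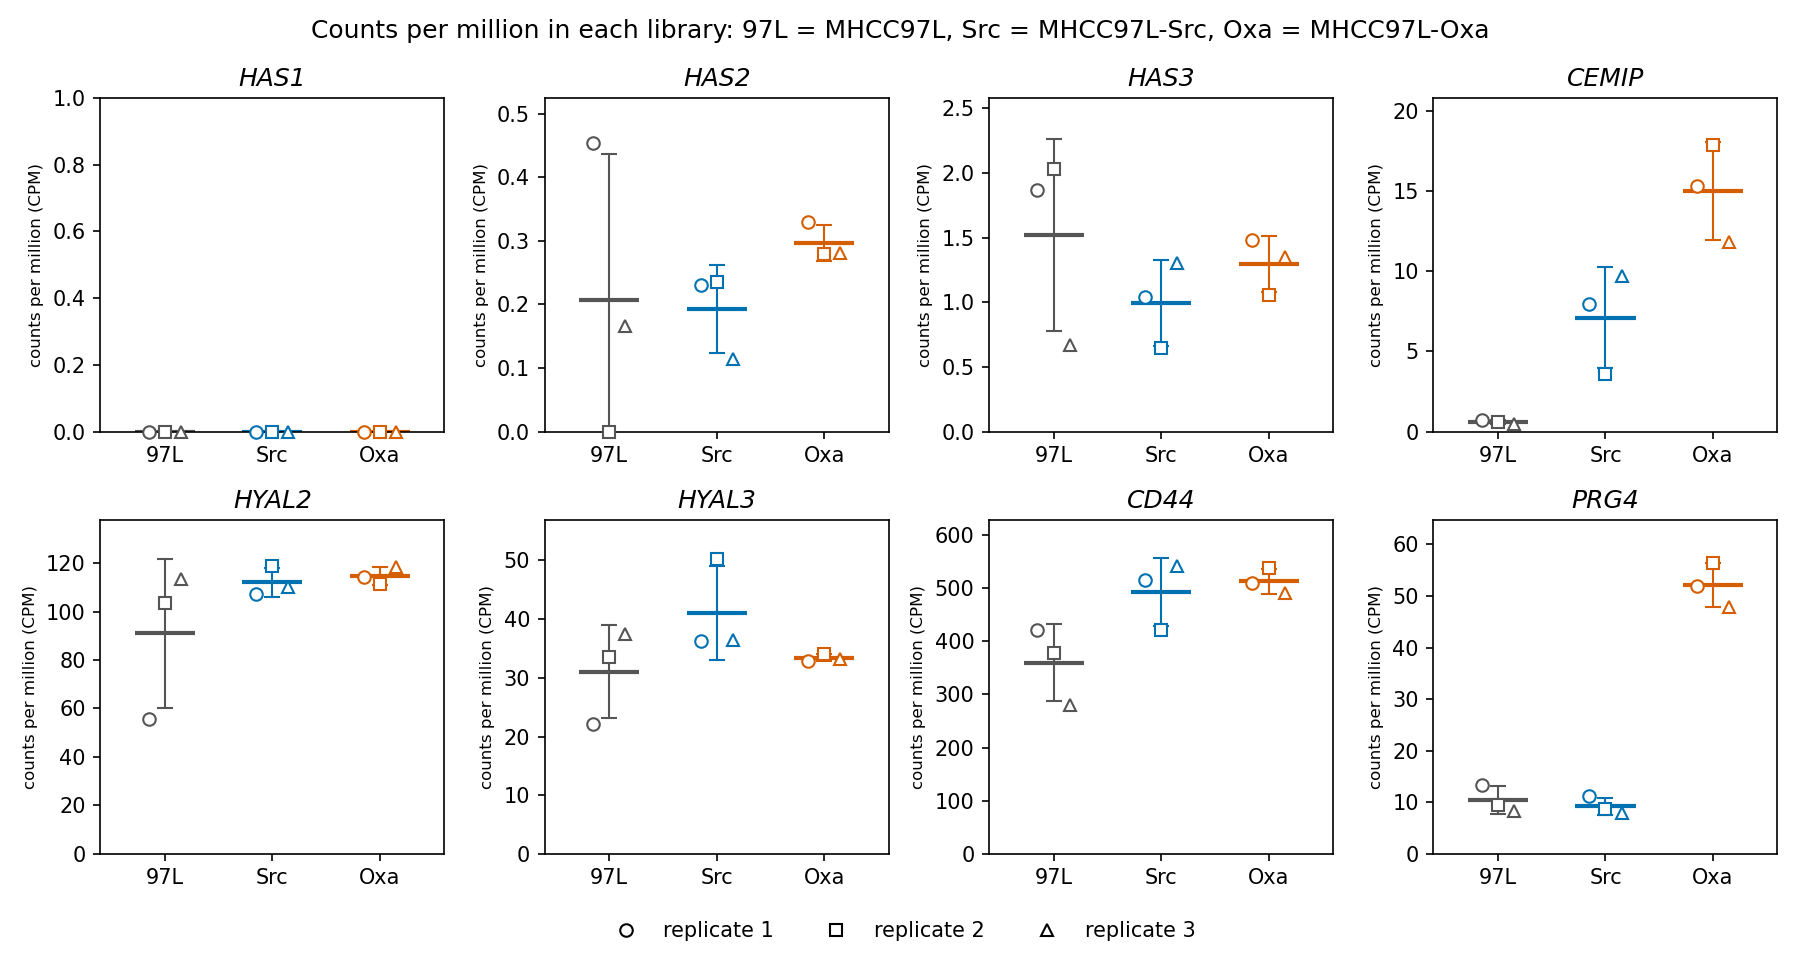
CPM of each of the 8 genes (vertical axes, each from 0) in MHCC97L, MHCC97L-Src and MHCC97L-Oxa, with symbols for replicates 1, 2 and 3, a line at the mean and bars of 1 SD. CEMIP lies at 0.501 to 0.736 in MHCC97L, 3.59 to 9.73 for MHCC97L-Src and 11.8 to 17.9 for MHCC97L-Oxa, and PRG4 is high in MHCC97L-Oxa alone, at 47.8 to 56.4.

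CEMIP (57214), a protein that binds hyaluronan and is needed for its depolymerisation in several cell types, showed the largest differences from MHCC97L among the 6 genes with fitted values. It had 13, 11 and 9 counts in MHCC97L, 138, 61 and 171 for MHCC97L-Src and 279, 320 and 210 for MHCC97L-Oxa. Each MHCC97L-Oxa library was above each MHCC97L-Src library, and each of those was above each MHCC97L library. In CPM the means were 0.619 ± 0.118 (SD, n = 3) in MHCC97L, 7.09 ± 3.16 for MHCC97L-Src and 15 ± 3.03 for MHCC97L-Oxa. The ratio of mean CPM to MHCC97L was 11.5 for MHCC97L-Src and 24.2 for MHCC97L-Oxa. RNA came from whole cultures, so a larger share of cells with CEMIP RNA and more CEMIP RNA per cell cannot be told apart.

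Against MHCC97L, the log2 fold change of CEMIP was 3.55 (standard error 0.53) for MHCC97L-Src and 4.60 (0.43) for MHCC97L-Oxa. Without MHCC97L replicate 1 these were 3.68 (0.57) and 4.78 (0.33). Once GC content and length were corrected for, they were 3.50 (0.43) and 4.57 (0.28). CEMIP was lower in MHCC97L-Src than in MHCC97L-Oxa, with a log2 fold change of -1.04 (0.30) that ranged from -1.29 to -0.77 over left-out libraries. MHCC97L-Src replicate 2, with 61 counts, was the low library of its line. CEMIP's longest transcript had a GC content of 53.1%, against a median of 49.2% over the genes tested.

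CEMIP spans 80779343 to 80951776 of chromosome 15 (GRCh38, + strand), with 30 merged exons in GENCODE release 29. Of its 7621 exon bases, 224 are shared with MESD on the opposite strand, and the strand setting of the counting is not given in the sources used here. MESD had 4018, 3093 and 2399 counts in MHCC97L, 3054, 2102 and 3591 for MHCC97L-Src and 3282, 2982 and 2845 for MHCC97L-Oxa. Its log2 fold change against MHCC97L was -0.02 (standard error 0.25) for MHCC97L-Src and -0.05 (0.21) for MHCC97L-Oxa, so the CEMIP pattern did not run with that of MESD.

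The promoters of CEMIP and PRG4 are printed because these genes had the largest line differences. Sequences are from RefSeq on build GRCh38.p14, as the 250 bases before the start on the + strand, 5′ to 3′. An entry was used for 7 of the 8 genes. The CEMIP window is chr15:80779120-80779369, and capitals mark TATAAA and GGGCGG, the latter also as its reverse complement.
CEMIP: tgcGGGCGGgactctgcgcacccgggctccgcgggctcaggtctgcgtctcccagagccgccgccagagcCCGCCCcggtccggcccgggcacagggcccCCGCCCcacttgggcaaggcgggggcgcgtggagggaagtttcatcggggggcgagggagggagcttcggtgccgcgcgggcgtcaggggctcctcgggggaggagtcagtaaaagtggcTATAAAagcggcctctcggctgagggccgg
The CEMIP window was 74.4% GC with 28 CpG dinucleotides, against medians of 58% and 11 over 27305 promoters of the same length. TATAAA stood 30 bases before the RefSeq start, and 11.1% of promoters hold it on either strand. The window ends at 80779369 and so runs past the GENCODE start of CEMIP at 80779343. GGGCGG occurred 3 times, at 247, 180 and 150 bases before the start, and 42.3% of promoters hold it. Searched on both strands, CTTTGA for TCF/LEF factors (in 11.4% of promoters), TGANTCA for AP-1 factors (6.60%) and the box CCAAT had no match in this window. These matches describe letters, and the data hold no measurement of factor binding.

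HYAL2 (8692) encodes a hyaluronidase anchored at the cell surface by a lipid. It had 984, 1838 and 2041 counts in MHCC97L, 1858, 2017 and 1936 for MHCC97L-Src and 2082, 1993 and 2104 for MHCC97L-Oxa. MHCC97L replicate 1 was low, and the other 8 libraries lay close together with overlapping lines. The log2 fold change against MHCC97L was 0.36 (standard error 0.32) for MHCC97L-Src and 0.33 (0.31) for MHCC97L-Oxa. Without MHCC97L replicate 1 it was 0.11 for MHCC97L-Src and 0.13 for MHCC97L-Oxa, and with GC content and length corrected for 0.03 and 0.16. Its value between the resistant lines was 0.02 (0.12), and its direction turned, to -0.13, after the correction for GC content and length.

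HYAL3 (8372) encodes a further hyaluronidase family member, with weak enzymatic activity reported. It had 391, 594 and 675 counts in MHCC97L, 630, 853 and 640 for MHCC97L-Src and 599, 610 and 590 for MHCC97L-Oxa. MHCC97L replicate 1 was again low and MHCC97L-Src replicate 2 was high. Its log2 fold change against MHCC97L was 0.47 (standard error 0.35) for MHCC97L-Src and 0.10 (0.30) for MHCC97L-Oxa, and the correction for GC content and length turned both, to -0.02 and -0.22. Without MHCC97L replicate 1 they were 0.28 and -0.03. All MHCC97L-Src libraries were above the MHCC97L-Oxa libraries, with a log2 fold change of 0.36 (0.18) between these lines, and 0.21 (0.10) after the correction. Over left-out libraries it ranged from 0.12 to 0.50. The transcripts of HYAL2 and HYAL3 were GC-rich, at 62.8% and 60.9%.

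HYAL3, HYAL1 and HYAL2 lie in this order on the - strand of chromosome 3, from 50292831 to 50322906. HYAL2 shares 509 of its 4545 exon bases with TUSC2, and HYAL3 shares 248 of 2030 with NAA80 and 43 with IFRD2, in each case on the same strand. NAA80 is listed in the tables under its older symbol NAT6. TUSC2 had 990, 1480 and 1559 counts in MHCC97L, 1714, 1888 and 1570 for MHCC97L-Src and 1602, 1557 and 1544 for MHCC97L-Oxa. As for HYAL2 and HYAL3, MHCC97L replicate 1 had the fewest counts of all 9 libraries for TUSC2, NAT6 (390) and IFRD2 (2484). Over the 9 libraries, Pearson's r of log2 CPM was 0.922 between HYAL2 and TUSC2, 0.824 between HYAL3 and NAT6 and 0.953 between HYAL3 and IFRD2. How far shared exons weigh in this was not tested. HYAL2 made up 60.5% to 70.0% of the summed FPKM of HYAL1, HYAL2 and HYAL3, and that sum lay between 36.3 and 75.9 per library. In FPKM, RNA for hyaluronidases was thus well above RNA for the synthases in each library.

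CD44 (960) was abundant in all lines. It had 7432, 6696 and 5033 counts in MHCC97L, 8928, 7142 and 9530 for MHCC97L-Src and 9283, 9615 and 8709 for MHCC97L-Oxa. Each MHCC97L-Oxa library was above each MHCC97L library, and MHCC97L-Src replicate 2 sat beside MHCC97L replicate 1. On plain CPM these neighbours overlapped, at 420.8 and 420.9, whereas after scaling by the TMM method (trimmed mean of M values) all MHCC97L-Src libraries, from 466 upward, were above the MHCC97L libraries, at up to 390.3. Mean CPM was 359 ± 72.2 (SD, n = 3) in MHCC97L, 493 ± 63.6 for MHCC97L-Src and 512 ± 23.3 for MHCC97L-Oxa. The resistant lines overlapped.

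The log2 fold change of CD44 against MHCC97L was 0.53 (standard error 0.23) for MHCC97L-Src and 0.53 (0.20) for MHCC97L-Oxa. Without MHCC97L replicate 1 these were 0.63 (0.19) and 0.69 (0.14), and without MHCC97L replicate 3, the lowest library, 0.38 and 0.39. The correction for GC content and length gave larger values, 1.06 (0.31) and 0.91 (0.29). That correction moved the median of all genes tested in the comparison of MHCC97L-Src from -0.16 to -0.05, and in that of MHCC97L-Oxa from -0.19 to -0.08. Relative to the median, CD44 was higher by 0.69 as fitted and 1.11 as corrected in MHCC97L-Src, and by 0.72 and 0.99 for MHCC97L-Oxa. Its log2 fold change between the resistant lines was -0.01 (0.10), and it turned to 0.01 with DESeq2's size factors and to 0.15 after the correction.

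CD44 lies on chromosome 11 from 35138870 to 35232402 on the + strand, with 21 merged exons. Its splice forms, in which variable exons are kept or skipped, cannot be read from counts per gene.

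PRG4 (10216) was high in the oxaliplatin-resistant line. It had 237, 170 and 149 counts in MHCC97L, 193, 147 and 141 for MHCC97L-Src and 947, 1010 and 850 for MHCC97L-Oxa. Each MHCC97L-Oxa library was above the other 6 libraries, and MHCC97L and MHCC97L-Src overlapped. Mean CPM was 10.4 ± 2.67 (SD, n = 3) in MHCC97L, 9.27 ± 1.65 for MHCC97L-Src and 52.1 ± 4.26 for MHCC97L-Oxa. The MHCC97L-Oxa mean was 4.99 times the MHCC97L mean and 5.62 times the MHCC97L-Src mean.

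The log2 fold change of PRG4 for MHCC97L-Oxa against MHCC97L was 2.35 (standard error 0.28), or 2.59 (0.14) without MHCC97L replicate 1, and it was 2.72 (0.21) after the correction for GC content and length. MHCC97L-Src was lower than MHCC97L-Oxa by a log2 fold change of -2.43 (0.17), and of -2.30 (0.21) after the correction. In MHCC97L-Src against MHCC97L the value was -0.08 (0.39), and it turned to 0.11 (0.34) without MHCC97L replicate 1, to 0.02 with DESeq2's size factors and to 0.43 (0.31) after the correction. Relative to the median of all genes tested it was 0.08 as fitted and 0.48 as corrected. PRG4 thus differed from CEMIP in its pattern, with CEMIP higher in both resistant lines and PRG4 for MHCC97L-Oxa.

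PRG4 lies on chromosome 1 from 186296279 to 186314562 on the + strand, with 13 merged exons. Of its 5044 exon bases, 670 are shared with TPR on the opposite strand. TPR had 937, 183 and 1392 counts in MHCC97L, 193, 232 and 145 for MHCC97L-Src and 189, 254 and 448 for MHCC97L-Oxa. TPR was thus highest in MHCC97L replicates 1 and 3, and PRG4 in the MHCC97L-Oxa libraries. The PRG4 window is chr1:186296023-186296272, from RefSeq on GRCh38.p14 and the + strand, with CCAAT or its reverse complement in capitals.
PRG4: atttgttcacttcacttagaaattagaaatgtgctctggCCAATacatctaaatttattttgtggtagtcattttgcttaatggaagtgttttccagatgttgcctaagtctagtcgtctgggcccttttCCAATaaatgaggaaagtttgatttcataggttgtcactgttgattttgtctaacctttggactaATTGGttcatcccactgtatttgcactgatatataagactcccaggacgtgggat
Its GC content was 37.2% with 2 CpG dinucleotides, at percentile 8.80 of all promoters by GC content. CCAAT stood 211, 120 and 55 bases before the start, the last on the - strand, and 33.0% of promoters hold it. The other 4 motifs had no match in this window. The CEMIP and PRG4 windows thus lay at opposite ends of promoter base composition and shared none of the 5 motifs searched.

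In FPKM, the mean levels in MHCC97L ran from HYAL2 at 36.0 ± 11.5 (SD, n = 3) through CD44 at 25.7 ± 5.32 and HYAL3 at 16.0 ± 3.70 down to PRG4 at 0.552 ± 0.172. HAS3, HAS2 at 0.0603 ± 0.0655, CEMIP at 0.0594 ± 0.0175 and HAS1 at 0 followed. HYAL2 and CD44 overlapped in the MHCC97L libraries, as did HAS2 and CEMIP, and the other neighbours did not.

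In MHCC97L-Src the FPKM order was HYAL2 at 43.5 ± 2.11 (SD, n = 3), CD44 at 34.1 ± 4.50, HYAL3 at 20.5 ± 3.91, CEMIP at 0.698 ± 0.305, PRG4 at 0.496 ± 0.0555, HAS3, HAS2 and HAS1. CEMIP and PRG4 were the only neighbours to overlap. In MHCC97L-Oxa it was HYAL2 at 45.1 ± 2.16, CD44 at 35.7 ± 1.97, HYAL3 at 17.1 ± 0.387, PRG4 at 2.91 ± 0.269, CEMIP at 1.48 ± 0.315, HAS3, HAS2 and HAS1, with no overlap between neighbours.

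HYAL2, CD44 and HYAL3 were thus among the more abundant RNAs, with percentiles from 78.4 to 90.6 among genes above 0 FPKM. CEMIP stood at percentile 13.2 in MHCC97L, 37.4 for MHCC97L-Src and 45.4 for MHCC97L-Oxa. In MHCC97L-Oxa its mean remained under the median FPKM of 2.12 over 14321 genes. PRG4 stood at percentile 28.3, 32.9 and 54.3 in MHCC97L, MHCC97L-Src and MHCC97L-Oxa.

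**Figure D2:**
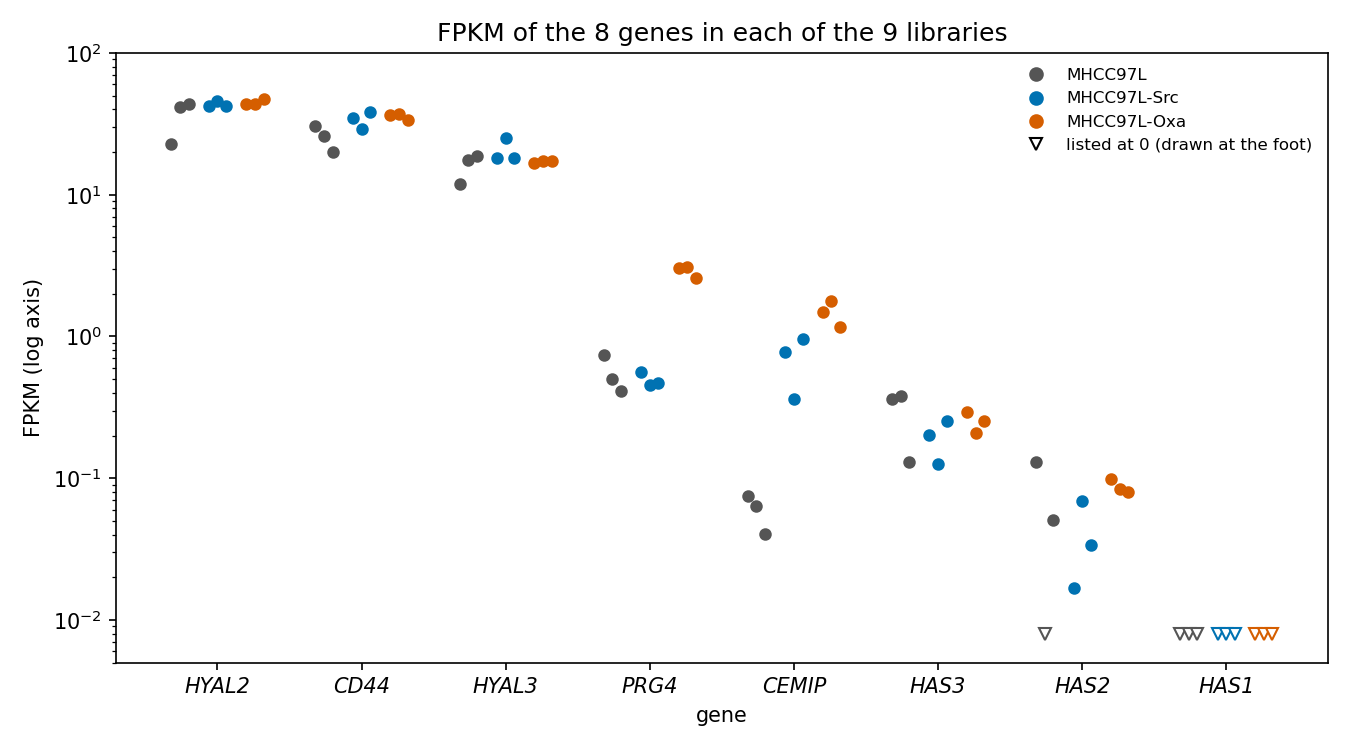
FPKM of the 8 genes on a log axis in each of the 9 libraries, coloured by line, with values of 0 drawn as open triangles at the foot. HYAL2, CD44 and HYAL3 lie well above the others in every library, and CEMIP spans 0.0402 to 1.79 FPKM over the 9 libraries.

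In the fit over all genes, edgeR's quasi-likelihood test with Benjamini-Hochberg adjustment at 0.05 was applied to the 6 of the 8 genes that passed the filter. Of these, 1 was called in MHCC97L-Src against MHCC97L (CEMIP), where 2.13% of all genes tested were called. In MHCC97L-Oxa against MHCC97L 2 were called (CEMIP and PRG4), where 0.953% of all genes were. In MHCC97L-Src against MHCC97L-Oxa 1 was called (PRG4), where 4.64% were. On TMM-scaled CPM, the lines did not overlap for 2 of the 6 genes between MHCC97L-Src and MHCC97L (CEMIP and CD44), beside 29.8% of all genes tested. For MHCC97L-Oxa against MHCC97L these were 3 (CEMIP, CD44 and PRG4), beside 28.1%, and between the resistant lines 3 (CEMIP, HYAL3 and PRG4), beside 26.7%. The members were selected on these data, so nothing is read from these counts.

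The call of CEMIP in MHCC97L-Src ended with limma on log2(FPKM + 1), with or without the filter, where its log2 fold change was 0.66. It also ended without MHCC97L replicate 3, where its log2 fold change was 3.44 and 22 genes were called in all, and without MHCC97L-Src replicate 3, where it was 3.32 and 27 genes were called. In MHCC97L-Oxa the calls of CEMIP and PRG4 ended without MHCC97L replicate 3 or without any of the MHCC97L-Oxa libraries. Each of those fits called 2 genes of all tested, while CEMIP stayed between 4.48 and 4.75 and PRG4 between 2.22 and 2.41. Without MHCC97L replicate 1, CD44 was also called in MHCC97L-Oxa, where 2251 genes were called. In MHCC97L-Src against MHCC97L-Oxa CEMIP was also called by DESeq2 and without MHCC97L-Src replicate 2 (-0.77) or replicate 3 (-1.29). The members were selected on these data, so these calls describe how the fits differ and are no test of the members.

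The rest of the pathway was read from 46 further genes, grouped under hyaluronan supply, breakdown or binding, or as CD44 partners. The 8 CD44 partners, MSN among them, were listed for their link to CD44, and the list counts and medians include them. In MHCC97L-Src against MHCC97L 23 were tested, 1 rose and 0 fell by edgeR's quasi-likelihood test with Benjamini-Hochberg adjustment, beside 1.43% and 0.698% of all genes tested. At an unadjusted p under 0.05, 4 were higher and 12 lower, beside 9.40% and 20.1% of all genes tested. By DESeq2 3 rose and 8 fell, beside 4.91% and 9.72% of all genes. In MHCC97L-Oxa 24 were tested, 1 rose and 0 fell (0.771% and 0.182% of all genes), against 4 higher and 8 lower unadjusted (8.84% and 13.6% of all genes) and 2 up and 2 down by DESeq2 (3.74% and 2.38%). Between the resistant lines 24 were tested, and 1 was higher and 1 lower in MHCC97L-Src, beside 2.12% and 2.52% of all genes. Unadjusted, 2 were higher and 8 lower (9.75% and 9.76% of all genes), and by DESeq2 1 was higher and 4 lower (2.64% and 2.95%). The median log2 fold change of the tested list genes was -0.82, -0.45 and -0.25 in these comparisons, beside -0.16, -0.19 and -0.02 over all genes tested. With GC content and length corrected for, it was -0.15, -0.02 and -0.07, beside -0.05, -0.08 and 0.03. Leaving out MHCC97L replicate 1 gave -0.50 for MHCC97L-Src and turned MHCC97L-Oxa to 0.07, beside -0.04 and 0.00.

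**Figure D3:**
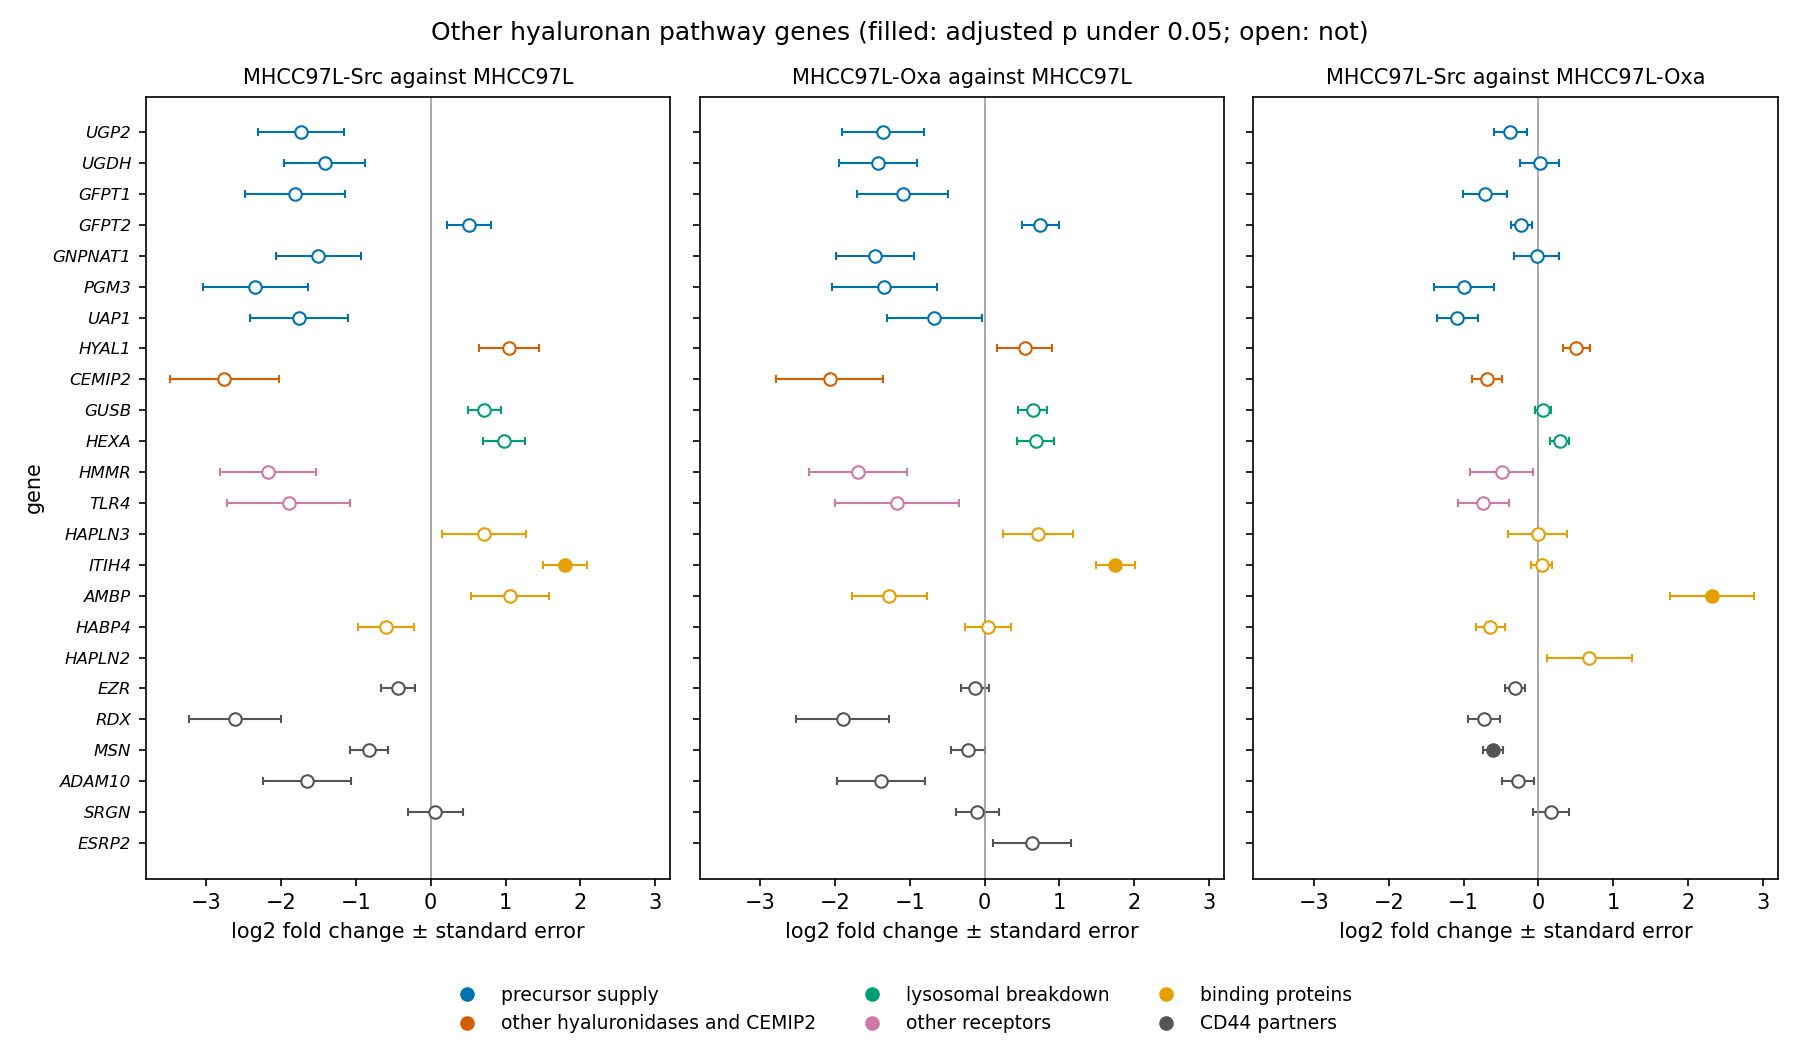
Log2 fold changes (horizontal axes) with standard errors of genes of the further pathway list in the 3 comparisons, with not every tested gene drawn, coloured by role, filled where called by edgeR and open where not. ITIH4 is filled at 1.79 and 1.75 against MHCC97L, and AMBP at 2.32 and MSN at -0.60 between the resistant lines.

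The gene that rose in both comparisons with MHCC97L was ITIH4, which encodes a heavy chain family protein of the inter-alpha-trypsin inhibitors, serum proteins of which several bind hyaluronan. ITIH4 had 221, 251 and 243 counts in MHCC97L, 748, 790 and 751 for MHCC97L-Src and 858, 767 and 781 for MHCC97L-Oxa. All resistant libraries were above all MHCC97L libraries, and the resistant lines overlapped. In MHCC97L-Src ITIH4 rose by 1.79 on the log2 scale (standard error 0.30, by edgeR quasi-likelihood, Benjamini-Hochberg adjusted p = 0.0228, higher in 3 of 3 libraries). Over the alternatives its adjusted p ran from 8.4e-07 to 0.138, and it missed the threshold without MHCC97L replicate 3 (0.105) or MHCC97L-Src replicate 1 (0.135), 2 (0.138) or 3 (0.113).

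In MHCC97L-Oxa ITIH4 rose by 1.75 (standard error 0.26, edgeR quasi-likelihood, Benjamini-Hochberg adjusted p = 0.0313, higher in 3 of 3 libraries). The range over the alternatives was 7.1e-09 to 0.260, and it missed the threshold without MHCC97L replicate 3 (0.139) or MHCC97L-Oxa replicate 1 (0.260), 2 (0.243) or 3 (0.245), and when the replicate number entered as a block (0.0620). The ITIH4 log2 fold changes lay between 1.69 and 1.93 over left-out libraries of both comparisons.

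Genes of precursor supply make the nucleotide sugars for the synthases. All 7 were tested and 6 were lower in each resistant line, where 57.3% of all genes tested were lower in MHCC97L-Src and 60.8% in MHCC97L-Oxa, although for MHCC97L-Oxa the GC content and length correction turned GFPT1 to 0.11, and UAP1 turned to 0.32 without MHCC97L replicate 1. Their median log2 fold change was -1.73 for MHCC97L-Src and -1.34 for MHCC97L-Oxa. It was -0.77 and -0.50 without MHCC97L replicate 1, and the correction for GC content and length brought it to -0.30 and -0.23. None of the 7 was called as first fitted by edgeR. In MHCC97L-Src, DESeq2 called GFPT1, PGM3, UAP1 and UGP2, the replicate block GNPNAT1, and the fit of all 9 libraries PGM3 and UGP2, each as lower. In MHCC97L-Oxa, GFPT2 was called as higher by DESeq2, after the GC correction and without MHCC97L replicate 1. Without MHCC97L replicate 2 more of them were called in both comparisons. Between the resistant lines UAP1 was at -1.08, and it was called as lower in MHCC97L-Src by DESeq2, with its size factors, without a filter, with the block, after the GC correction, and without MHCC97L-Src replicate 2 or 3 or MHCC97L-Oxa replicate 1. GFPT1 was called there without MHCC97L-Src replicate 3. GNPNAT1 had the highest mean FPKM of them over the 9 libraries, although GFPT2 was above it in both resistant lines. GNPNAT1 was at 18.0 ± 15.3 (SD, n = 3) in MHCC97L, 5.74 ± 3.01 for MHCC97L-Src and 6.02 ± 1.65 for MHCC97L-Oxa. Its MHCC97L counts were 2663 in the highest library and 659 in the lowest, so the spread in that line was as large as the difference. Against MHCC97L its log2 fold change was -1.50 for MHCC97L-Src and -1.47 for MHCC97L-Oxa, but -0.57 and -0.50 without MHCC97L replicate 1, and -0.29 and -0.47 with GC content and length corrected for.

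Among the other breakdown genes, HYAL1, a hyaluronidase of lysosomes and plasma, had the highest mean FPKM of its group over the 9 libraries. The CEMIP2 mean was above it in MHCC97L, through replicate 1 (9.96 against 1.69), whereas in replicates 2 and 3 HYAL1 was higher. HYAL1 was at 2.27 ± 0.506 (SD, n = 3) in MHCC97L, 4.41 ± 0.570 for MHCC97L-Src and 3.30 ± 0.159 for MHCC97L-Oxa. It had 119, 192 and 205 counts in MHCC97L, 301, 370 and 320 for MHCC97L-Src and 265, 267 and 225 for MHCC97L-Oxa, with no overlap between any of the lines. Its difference from MHCC97L was not called in MHCC97L-Src by edgeR's quasi-likelihood test (log2 fold change 1.05, standard error 0.40, Benjamini-Hochberg adjusted p = 0.136, higher in 3 of 3 libraries). It was called by DESeq2, with all 9 libraries and after the GC correction. In MHCC97L-Oxa its log2 fold change was 0.54 (0.37). Without MHCC97L replicate 1 it was 0.85 for MHCC97L-Src and 0.39 for MHCC97L-Oxa, and corrected for GC content and length 0.69 and 0.31. HEXA, a subunit of lysosomal hexosaminidase, was at 50.3 ± 11.9 FPKM in MHCC97L, 93.5 ± 11 for MHCC97L-Src and 80 ± 2.22 for MHCC97L-Oxa. Against MHCC97L its log2 fold change was 0.97 (standard error 0.28) for MHCC97L-Src and 0.68 (0.25) for MHCC97L-Oxa, as first fitted not called in either. It was 0.79 and 0.56, called in both, without MHCC97L replicate 1, and 1.33 and 0.89, called in neither, with GC content and length corrected for. In MHCC97L-Src HEXA was also called by DESeq2, with all 9 libraries and without MHCC97L replicate 2.

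CEMIP2, the paralog of CEMIP and a membrane protein with reported hyaluronidase activity, ran the other way. It had 1546, 169 and 335 counts in MHCC97L, 86, 76 and 109 for MHCC97L-Src and 147, 159 and 161 for MHCC97L-Oxa. All MHCC97L libraries were above all resistant libraries, but MHCC97L replicate 1 was far above replicates 2 and 3. The log2 fold change of CEMIP2 was -2.76 (standard error 0.73) for MHCC97L-Src and -2.07 (0.71) for MHCC97L-Oxa, and without MHCC97L replicate 1 it was -1.37 (0.37) and -0.64 (0.30). With GC content and length corrected for, it was -1.85 (0.47) and -1.30 (0.45). As first fitted by edgeR it missed the threshold in both comparisons. In MHCC97L-Src it was called without a filter, with the replicate block and with all 9 libraries, and in both comparisons by DESeq2 and without MHCC97L replicate 2. CEMIP2 was singled out as the paralog after its values were seen.

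Among further hyaluronan receptors, LYVE1, LAYN and TLR2 had 0 counts in all 9 libraries. HMMR had the highest mean FPKM of the group. It was at 5.16 ± 3.27 (SD, n = 3) in MHCC97L, 0.957 ± 0.371 for MHCC97L-Src and 1.52 ± 0.779 for MHCC97L-Oxa. In FPKM each MHCC97L library was above each MHCC97L-Src library, though narrowly (1.387 against 1.381), and MHCC97L-Oxa overlapped both. In CPM HMMR overlapped between all 3 lines. Its log2 fold change against MHCC97L was -2.17 (standard error 0.64) for MHCC97L-Src and -1.69 (0.65) for MHCC97L-Oxa, not called as first fitted. It was -1.86 and -1.33 without MHCC97L replicate 1, and -0.83 and -0.79 with GC content and length corrected for. In MHCC97L-Src it was called as lower by DESeq2, with the replicate block and with all 9 libraries, and in both comparisons without MHCC97L replicate 2. Of the 17 binding proteins of matrix and serum, 7 had at most 3 counts in every library and 6 of those had 0 throughout.

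AMBP encodes the precursor of bikunin, the light chain of the inter-alpha-trypsin inhibitors. It had 14, 11 and 12 counts in MHCC97L, 29, 29 and 12 for MHCC97L-Src and 8, 4 and 3 for MHCC97L-Oxa. Each MHCC97L-Src library was above each MHCC97L-Oxa library. AMBP was higher in MHCC97L-Src than in MHCC97L-Oxa, with a log2 fold change of 2.32 (standard error 0.56, by edgeR quasi-likelihood, Benjamini-Hochberg adjusted p = 0.0442, in 3 of 3 libraries). Over the alternatives the adjusted p ran from 0.0048 to 0.212, and it missed the threshold without MHCC97L-Src replicate 1 (0.167) or 2 (0.0631) and without MHCC97L-Oxa replicate 1 (0.0742), 2 (0.212) or 3 (0.171). It also missed it with all 9 libraries in 1 fit (0.137), with block and GC correction (0.0516), and by limma on log2(FPKM + 1) without a filter (0.0816).

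MSN encodes moesin, which ties CD44 to actin, and had the highest mean FPKM of the CD44 partners. It had 24246, 30089 and 22448 counts in MHCC97L, 14276, 10177 and 16329 for MHCC97L-Src and 24293, 22346 and 19575 for MHCC97L-Oxa. All MHCC97L-Src libraries were below the other 6. MSN was lower in MHCC97L-Src than in MHCC97L-Oxa with a log2 fold change of -0.60 (standard error 0.14, by edgeR quasi-likelihood, Benjamini-Hochberg adjusted p = 0.0346, in 3 of 3 libraries). The adjusted p ran from 8.6e-04 to 0.415, and it missed the threshold without MHCC97L-Src replicate 1 (0.121) and without MHCC97L-Oxa replicate 1 (0.142), 2 (0.165) or 3 (0.0774). It also missed it with all 9 libraries in 1 fit (0.415), and by limma on FPKM with pseudocount 1 (0.0693), pseudocount 0.1 (0.0679), or 1 without a filter (0.114). The mean FPKM of MSN was 209 ± 34.1 (SD, n = 3) in MHCC97L, 113 ± 24.7 for MHCC97L-Src and 180 ± 17.6 for MHCC97L-Oxa.

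The genes whose log2 CPM ran most like CEMIP over the 9 libraries, among 10615 compared, were RPL31 (Pearson's r 0.990), CA5B (0.985), CFB (0.978), STC2 (0.976) and ARNT2 (0.973). Mean CPM of STC2 was 91.6 ± 7.27 (SD, n = 3) in MHCC97L, 199 ± 3.76 for MHCC97L-Src and 270 ± 14.7 for MHCC97L-Oxa. For PRG4 they were BHLHE40 (0.967), HCAR2 (0.963), ADAMTS10 (0.947), OSBPL7 (0.945) and MSH5 (0.941). Mean CPM of HCAR2 was 1.87 ± 0.134 (SD, n = 3) in MHCC97L, 1.89 ± 0.253 for MHCC97L-Src and 7.0 ± 1.51 for MHCC97L-Oxa. The 9 points share 3 lines, so these values mostly rank genes by their line means.

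Marker genes of other cell types were read over the same libraries. Of 7 fibroblast genes 4 or 5 had over 3 counts per library, with the most counts for COL1A1 or DCN, and COL1A2 and PDGFRA had at most 2 counts. Their summed level was 228, 149 and 145 CPM in MHCC97L, 96.9, 84.6 and 100 for MHCC97L-Src and 178, 186 and 168 for MHCC97L-Oxa. Of 5 mesothelial genes 3 were detected, MSLN had the most counts and WT1 had 0 counts in every library. The mesothelial sum was 57.1, 83.9 and 101 CPM in MHCC97L, 75.8, 84.1 and 69.2 for MHCC97L-Src and 84.5, 92.8 and 94.6 for MHCC97L-Oxa.

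Of 6 leukocyte genes 2 to 4 were detected, CD68 had the most counts and PTPRC and CD3E had 0 counts in every library. The leukocyte sum was 50.5, 74.9 and 81.4 CPM in MHCC97L, 93.5, 96.6 and 78.1 for MHCC97L-Src and 149, 151 and 153 for MHCC97L-Oxa. Of 5 endothelial genes 2 or 3 were detected, PECAM1 or CDH5 had the most counts and KDR had 0 counts throughout. The endothelial sum was 2.61, 2.65 and 2.22 CPM in MHCC97L, 11.9, 13.0 and 15.6 for MHCC97L-Src and 1.43, 1.73 and 1.80 for MHCC97L-Oxa. The higher MHCC97L-Src sum came mostly from CDH5, with a mean CPM of 11.9, against 1.25 in MHCC97L and 0.501 for MHCC97L-Oxa. Mean CPM of PECAM1 was 1.44 for MHCC97L-Src, 1.13 in MHCC97L and 1.06 for MHCC97L-Oxa. CD68 thus ran with PRG4 in being highest in MHCC97L-Oxa, while defining leukocyte markers were at 0, and the part of these markers in the results was not tested.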

How the data were processed

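RNA of 9 libraries was read by stranded, paired poly(A) sequencing. Per the submitters' notes, Trimmomatic 0.36 and HISAT2 2.2.1.0 (GRCh38.p12) were used, and the counting program is not given in the sources used here. The authors deposited raw read counts and FPKM values per gene.

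Genes kept by filterByExpr (minimum count 10) were scaled by TMM and tested by edgeR 4.0.16 (quasi-likelihood), 3 libraries against 3, with Benjamini-Hochberg adjustment over all genes and calls at 0.05. Members and lists were chosen with earlier results of these data known. The text names the 8 members, list genes called (up to 8 per comparison, by smallest adjusted p), the list gene of highest FPKM per role, and the 5 genes most like CEMIP and PRG4 (Pearson's r of log2 CPM, prior count 2, mean at least 1). GC content and length of the longest GENCODE 29 transcript were corrected for by natural splines (5 degrees of freedom each).

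Alternatives were DESeq2 1.42.0, its size factors, no filter, a replicate block, all 9 libraries in 1 fit, the GC correction with and without the block, limma 3.58.1 on log2(FPKM + 1) or log2(FPKM + 0.1), an unadjusted threshold with an absolute log2 fold change over 1, and leaving out each library. R 4.3.3, matplotlib 3.10.9, SciPy 1.17.1, pandas 2.3.3 and Python 3.11.15 were run. Scripts were tested on simulated data.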

Additional observations from a re-analysis of the deposited data

Results flagged for a closer look

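For AMBP and MSN the difference between the resistant lines was itself tested and passed the threshold by edgeR's quasi-likelihood test with Benjamini-Hochberg adjustment. AMBP was higher in MHCC97L-Src than in MHCC97L-Oxa by a log2 fold change of 2.32, with 29, 29 and 12 counts against 8, 4 and 3. Against MHCC97L its log2 fold change was 1.06 (standard error 0.52) for MHCC97L-Src and -1.28 (0.50) for MHCC97L-Oxa, and neither was called. MSN was lower in MHCC97L-Src than in MHCC97L-Oxa by a log2 fold change of -0.60, and against MHCC97L it was -0.82 (0.25) for MHCC97L-Src and -0.22 (0.22) for MHCC97L-Oxa, neither called as first fitted. In MHCC97L-Src MSN was called with all 9 libraries, after the GC correction and without MHCC97L replicate 1. Between the resistant lines both genes missed the threshold when all 9 libraries entered 1 fit. The cause was not tested.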

How the results depend on the processing

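Of 288 values of the members under alternatives, 263 moved by less than 1 SD and 25 by more, and no called value reversed. Since the members were selected on these data, this describes the processing and is no test of them. In MHCC97L-Src against MHCC97L 256 genes were called. This became 2219 with DESeq2, 702 without a filter, 1956 with all 9 libraries, 1277 with the GC correction, 2966 at the unadjusted threshold, and 22 to 3419 over left-out libraries. In MHCC97L-Oxa against MHCC97L 115 became 927, 495 (all 9 libraries), 1558 (GC), 252, 256 and 242 with FPKM (pseudocount 1, pseudocount 0.1, and 1 without a filter), 1951 (unadjusted with the same fold change cutoff), and 2 to 2705. Between the resistant lines 556 became 837 (DESeq2), 86 (all 9 libraries), 1154 (GC), and 167 to 1617.

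Of the list, 1 gene was called in MHCC97L-Src, and 11 with DESeq2, 2 with its size factors, 3 without a filter, 10 with all 9 libraries, 6 with GC, 13 unadjusted, and 0 to 13 over left-out libraries. In MHCC97L-Oxa 1 became 4 (DESeq2), 3 (GC), 2 with FPKM at pseudocount 1 with or without a filter, 9 (unadjusted with that fold change cutoff), and 0 to 10. Between the resistant lines 2 became 5 (DESeq2), 0 (all 9 libraries), 4 (GC), 1 (FPKM, pseudocount 0.1), 0 (FPKM without a filter), and 0 to 7. At an unadjusted p under 0.05 without that cutoff, 1 was higher and 2 lower with all 9 libraries (edgeR), and 2 higher and 7 lower with FPKM without a filter (limma).

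The replicate block pairs libraries by number. Mean r of same-numbered libraries was -0.0869, 0.0266 and -0.106, so they did not run together. With it 988 genes were called in MHCC97L-Src, with 5 of the list. In MHCC97L-Oxa 0 of the list were called with it (3 higher and 5 lower at an unadjusted p under 0.05). Without the block, edgeR called 1 of the list there and DESeq2 4. With block and GC 599 genes were called in MHCC97L-Oxa and 1 of the list between the resistant lines.

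Log2 fold changes with GC, and with block and GC, were 0.43 and 0.41 for PRG4, -0.02 and -0.02 for HYAL3 and 1.06 and 1.14 for CD44 for MHCC97L-Src. In MHCC97L-Oxa they were 2.72 and 2.74 for PRG4 and 0.91 and 1.00 for CD44. Between the resistant lines they were -0.13 and -0.13 for HYAL2 and 0.15 and 0.14 for CD44. With FPKM, with or without a filter, pseudocount 1 gave 0.66 and 1.22 for CEMIP against MHCC97L, and 1.34 and -1.39 for PRG4 for MHCC97L-Oxa and between the resistant lines, since it is large beside these FPKM values. Pseudocount 0.1 gave 2.25 and 3.30 for CEMIP. Without 1 library PRG4 for MHCC97L-Oxa ran from 2.22 to 2.59. The other causes were not tested.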

Other observations

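Genes within 500 kb of CEMIP were read after ARNT2 was seen among the genes most like it, so they were chosen after their values were seen. ARNT2 ends 181406 bases before CEMIP on chromosome 15 and encodes a transcription factor that pairs with other factors of its family. It had 58, 67 and 59 counts in MHCC97L, 495, 315 and 444 for MHCC97L-Src and 549, 537 and 461 for MHCC97L-Oxa. All resistant libraries were above all MHCC97L libraries, and the resistant lines overlapped. Its log2 fold change against MHCC97L was 2.86 (standard error 0.39) for MHCC97L-Src and 3.06 (0.33) for MHCC97L-Oxa. ABHD17C, between ARNT2 and CEMIP, had 836, 749 and 490 counts in MHCC97L, 1465, 897 and 2107 for MHCC97L-Src and 2357, 1999 and 1709 for MHCC97L-Oxa, again with no overlap between MHCC97L and the resistant lines. On the other side, MESD overlapped between all lines, with 4018, 3093 and 2399 counts in MHCC97L against 2102 to 3591 in the resistant lines. Further out, TLNRD1 had 614, 917 and 967 counts in MHCC97L, 1117, 1423 and 1264 for MHCC97L-Src and 1077, 1282 and 1282 for MHCC97L-Oxa. STARD5 had 20, 22 and 11 counts in MHCC97L, 47, 32 and 51 for MHCC97L-Src and 42, 38 and 37 for MHCC97L-Oxa. Both were above MHCC97L in every resistant library, but as first fitted by edgeR neither was called in either comparison with MHCC97L. STARD5 was called in both after the GC correction. ABHD17C was called as first fitted in MHCC97L-Oxa and not in MHCC97L-Src. Neither outcome held over all left-out libraries. By edgeR's quasi-likelihood test its Benjamini-Hochberg adjusted p then ran from 0.0062 to 0.266 in MHCC97L-Oxa and from 0.0247 to 0.226 in MHCC97L-Src. On TMM-scaled CPM, the lines did not overlap for 29.8% of all genes tested for MHCC97L-Src and 28.1% for MHCC97L-Oxa. CFAP161, IL16 and TMC3, also within 500 kb of CEMIP, had at most 2 counts in any library. The genes around PRG4 were low or followed another pattern. ODR4 had 262, 35 and 126 counts in MHCC97L, 36, 24 and 33 for MHCC97L-Src and 37, 61 and 96 for MHCC97L-Oxa, and PTGS2 had at most 5 in any library.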
